A study of Homo sapiens with 4 samples.

Results

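The chaperones of the endoplasmic reticulum (ER) and the genes of its unfolded protein response were followed on 4 Affymetrix arrays of RNA from Panc1, an established line of human pancreatic cancer cells. The set was a list of 40 genes, and a probe set counted only if the platform annotation gave it to 1 gene and that gene was in the list. By this rule 38 genes were found, through 98 probe sets, among 19775 genes that the arrays name in this way. PDIA5 and SYVN1 had no probe set of their own and were not analysed here. Where a gene had several, the one brightest on average (mean of log2 signals) stood for it. The conditions were romidepsin plus tamoxifen (the combination), romidepsin alone and tamoxifen alone, each for 24 hours, and untreated cells, with 1 array each. Romidepsin inhibits histone deacetylases. Tamoxifen binds the estrogen receptor and blocks or activates it depending on the tissue. The dose of either drug is not given in the sources used here. No condition had a replicate. A fit that takes the effects of both drugs as additive would leave 1 residual degree of freedom and was not run, so no p-value is given and every fold describes these arrays only.

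The ER folds membrane and secreted proteins. When unfolded proteins gather there, 3 sensors in its membrane respond: the kinase and ribonuclease IRE1 (gene ERN1), the kinase PERK (EIF2AK3) and the transcription factor precursor ATF6. IRE1 splices the XBP1 mRNA into the form that codes for an active transcription factor, ATF6 is cut in the Golgi apparatus to free its active part, and PERK slows translation. XBP1 and ATF6 then raise the genes of chaperones, of enzymes that form disulfide bonds, and of ER-associated degradation, which sends misfolded proteins back to the cytosol for the proteasome. Exocrine cells of the pancreas secrete large amounts of protein and are known for their reliance on this response.

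Signals are on the linear scale of the MAS5 program. Signals under 66.4, the median of all signals that are not controls, were set to that floor, and a gene was said to rise or fall where 2 arrays differed by at least 2-fold. All 38 genes lay above the floor on at least 1 array and 37 on all 4. CREBRF, at 64.6 in untreated cells, was the exception, so its folds over untreated cells are lower bounds for the probe set that stood for it. For actin, the probe set at the 3′ end over that at the 5′ end, which reads RNA integrity, gave 1.73 for the combination, 1.18 for romidepsin, 1.39 for tamoxifen and 1.21 for untreated cells. The same ratio for GAPDH differed little, at 1.07, 1.03, 1.04 and 1.07 in the same order. Spike-in controls, which carry no RNA of the cells, were at 0.819 times their untreated level in the combination, 1.01 times with romidepsin and 0.781 times with tamoxifen. Of 5 duct and epithelial markers, KRT7, KRT8 and KRT18 were above the floor on all 4 arrays, EPCAM on 3 and KRT19 on none. Of 12 markers of acinar, endocrine, leukocyte and endothelial cells with a probe set, 8 were under the floor on every array and PECAM1 alone was above it on all 4, at 110 to 136. The 12 summed to 496 in the combination, 575 with romidepsin and 448 with tamoxifen, against 385 in untreated cells, and the 5 duct and epithelial markers to 16180, 31323 and 23081, against 35367. KRT8 and KRT18 make up most of that second sum, and EPCAM ran the other way, at 475 in the combination, 395 with romidepsin and 71.9 with tamoxifen, against 64.3 in untreated cells. The endocrine marker INS and the acinar marker CPA1 did not exceed 12.5 on any array. GCG and SST, also endocrine, reached 57.2 and 63.3, still under the floor. The endothelial marker VWF was at 73.55 in the combination, 98.3 with romidepsin and 38.7 with tamoxifen, against 11.9 in untreated cells. The acinar marker CELA3A was at 47.2 in the combination, 79.8 with romidepsin and 89.2 with tamoxifen, against 132 in untreated cells, and the endocrine marker CHGA was above the floor with romidepsin, at 81.4. The part of RNA integrity, of spike-in level and of these markers in the values that follow was not tested.

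The list did not move as a block. In the combination 10 of 38 genes rose and 1 fell against untreated cells, while the central chaperone HSPA5 stood at 1.02 times its untreated level. The genes that rose were CLGN, ERGIC2, ERO1B, EDEM3, CREBRF, SEL1L, HSP90B1, DNAJC10, DNAJC3 and SSR1, and the gene that fell was XBP1. The share of all 13802 genes measured in this comparison was 19.8% for rises and 14.4% for falls. The members' shares were 26.3% and 2.63%. The median log2 fold of the members was 0.56, against 0.09 for all genes. With arrays scaled to the spike-in controls 18 members rose, and with arrays centred on their medians 8, where 2026 of all genes then rose and 2886 fell, against 2727 and 1984 as deposited. In bulk RNA such as this, fewer cells of a kind and less RNA per cell cannot be told apart. As a yardstick, probe sets of 1 gene differed by a median of 0.35 in this comparison on the log2 scale. Of 19 further probe sets of the called members with signals above the floor on both arrays, all 19 moved the same way and 16 also differed by at least 2-fold. Such probe sets share the array and its RNA, so they do not replicate a call.

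**Figure D1:**
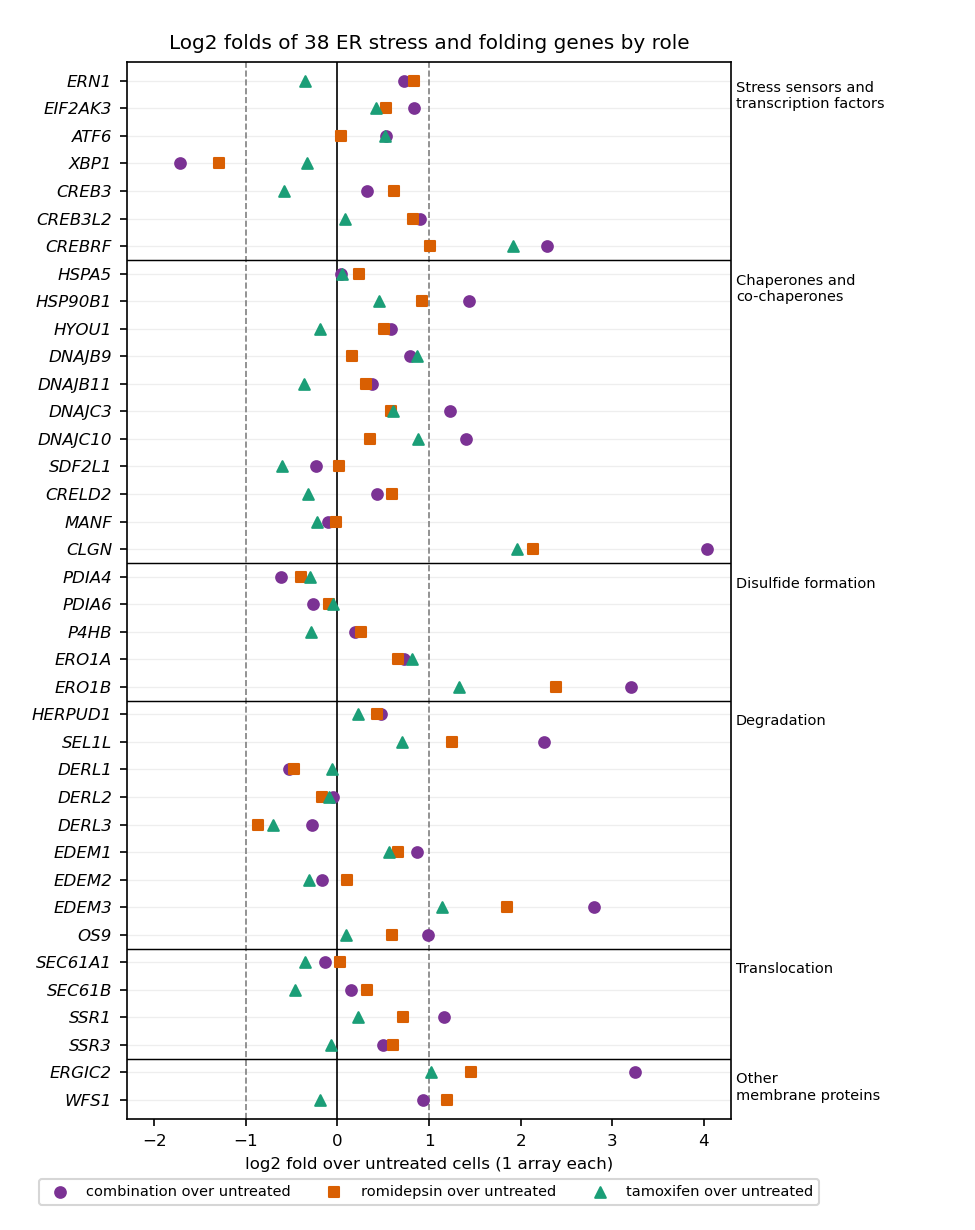
Log2 fold of each of the 38 genes over untreated cells, by role, with 1 point each for the combination, romidepsin and tamoxifen and dashed lines at 2-fold. CLGN, ERGIC2 and ERO1B lie farthest right in the combination, at 4.03, 3.25 and 3.21, and XBP1 farthest left, at -1.72. The CREBRF points are lower bounds for the probe set that stood for it.

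With romidepsin alone 7 of 38 genes rose and 1 fell, where 14.3% of 13619 genes measured rose and 9.27% fell. The 7 were ERO1B, CLGN, EDEM3, ERGIC2, SEL1L, WFS1 and CREBRF, and XBP1 fell. The members' share of rises was 18.4%, close to that of all genes, but their median log2 fold was 0.52 against 0.06. Above 0 stood 31 of 38 members and 7298 of 13619 genes. Without probe sets that can match several transcripts the members' median was 0.32, against 0.08 for all genes. Centring the arrays on their medians gave 6 rises and 2 falls. With tamoxifen alone 5 of 38 rose, CLGN, CREBRF, ERO1B, EDEM3 and ERGIC2, and 0 fell, where 3.7% of 13051 genes rose and 1.07% fell. The members' share of rises was 13.2%, while their median was 0.01, the same as for all genes, with 19 above and 19 below 0. So 5 genes were past 2-fold in a list whose middle stayed with that of all genes. ERGIC2 and EDEM3 were only just past it, at log2 folds of 1.02 and 1.14. DNAJC10, DNAJB9 and ERO1A came next, at 0.88, 0.87 and 0.82 by the probe sets that stood for them. Across their probe sets above the floor the log2 folds ran from 0.88 to 1.48, 0.47 to 0.87 and 0.61 to 1.12. With spike-in scaling 9 rose and the median was 0.36, and with arrays centred 3 rose. With the floor at the 75th percentile, which lies above the untreated signals of CLGN, ERO1B and EDEM3, 3 members rose with romidepsin and 1 with tamoxifen. The romidepsin calls of all 3 genes and the tamoxifen calls of CLGN and EDEM3 were then lost. ERO1B and CREBRF lay under that floor on the tamoxifen and untreated arrays and gave no value for tamoxifen. The 3 comparisons over untreated cells share the untreated array.

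**Figure D2:**
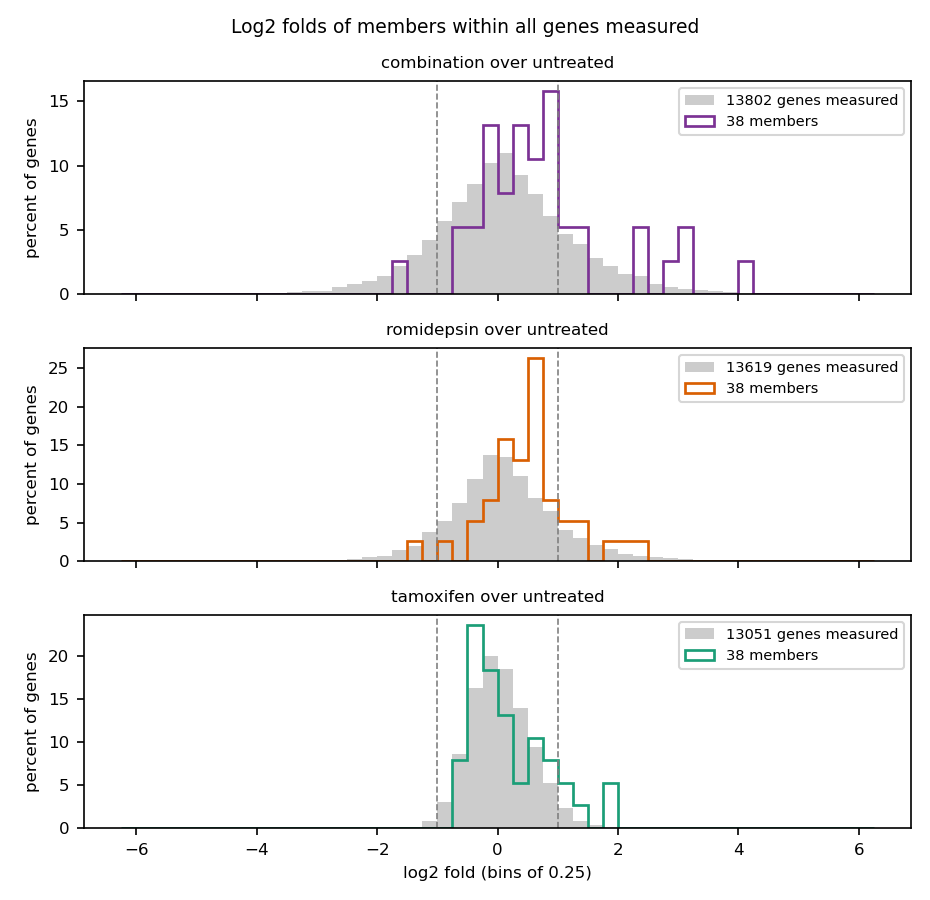
Distribution of log2 folds over untreated cells, as percent of genes per bin, for all genes measured (grey) and for the 38 members (outline), with dashed lines at 2-fold. The members' median is 0.56 in the combination, 0.52 with romidepsin and 0.01 with tamoxifen, and in each panel a few members lie past the right line.

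Many genes of this response carry the ER stress response element, called ERSE, in their promoter. It binds NF-Y at its CCAAT end and ATF6 or XBP1 at its CCACG end. Promoter windows from RefSeq (build GRCh38.p14), from 250 bases before to 50 after each start, were found for 38 of the 40 listed genes; DERL1 and DERL3 had no entry. Both strands were searched, and a gene with several starts counted once. The ERSE letters, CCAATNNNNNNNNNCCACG, stood in the windows of 6 of 38 members, or 15.8%, and of 25 of 27305 genes in all, or 0.0916%. The second form, ERSE-II, ATTGGNCCACG, stood in 3 of 38 members (7.89%) and in 0.0696% of all genes. No member had both. The motifs were searched because they are known from genes of this response. Their higher shares among members are therefore a description and not a test. The copies are shown because these letters are rare among all promoters; capitals mark the fixed letters, the lower case the free ones, and each is read on the strand that gives the motif. The first 7 are ERSE and the last 4 are ERSE-II.
CRELD2 (chr22:49918554-49918572, minus strand): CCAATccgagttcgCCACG
ERO1B (chr1:236282183-236282201, plus strand): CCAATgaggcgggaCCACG
HSP90B1 (chr12:103930216-103930234, plus strand): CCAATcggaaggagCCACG
HSP90B1 (chr12:103930321-103930339, minus strand): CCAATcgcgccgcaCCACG
HSPA5 (chr9:125241391-125241409, minus strand): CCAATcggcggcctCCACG
PDIA6 (chr2:10812853-10812871, minus strand): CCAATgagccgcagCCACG
XBP1 (chr22:28800603-28800621, minus strand): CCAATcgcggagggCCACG
HERPUD1 (chr16:56932025-56932035, plus strand): ATTGGgCCACG
HYOU1 (chr11:119057274-119057284, plus strand): ATTGGaCCACG
HYOU1 (chr11:119057380-119057390, plus strand): ATTGGaCCACG
SDF2L1 (chr22:21642114-21642124, minus strand): ATTGGtCCACG

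The parts of the element are far more common than the whole. CCACG, which ERSE and ERSE-II contain, stood in 76.3% of members and 42.1% of all genes, and CCAAT, also contained in ERSE (and in ERSE-II on its other strand), in 76.3% and 39.7%. The letters TGACGTGG, a site for ATF6 and XBP1 that can overlap CCACG, stood in DNAJC10, HYOU1 and SSR3, or 7.89% of members and 0.927% of genes. A composite site of the PERK branch, TGATGNAA, stood in HERPUD1 and CREB3L2, 5.26% of members and 4.46% of genes. A match is a description of these windows and does not show that a factor binds there.

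Members with the element did not move together. Among the 9 with ERSE or ERSE-II, 2 rose in the combination and 1 fell, and their log2 folds over untreated cells ran from -1.72 for XBP1 to 3.21 for ERO1B, with a median of 0.43. Among the 27 measured members with a window and without either form, 8 rose and 0 fell, and the median was 0.80. Of all genes measured in this comparison 19.8% rose and 14.4% fell, and both groups of members are small. The 250 bases before the start are given for 5 genes. HSPA5, XBP1 and ERO1B hold ERSE, in capitals, and stood level, fell and rose in the combination; in ERO1B it lies on the opposite strand and is printed as it reads on the gene's strand. CLGN and ERGIC2, the members with the highest folds in that comparison, hold neither form in this window.
HSPA5 (chr9:125241344-125241593, minus strand): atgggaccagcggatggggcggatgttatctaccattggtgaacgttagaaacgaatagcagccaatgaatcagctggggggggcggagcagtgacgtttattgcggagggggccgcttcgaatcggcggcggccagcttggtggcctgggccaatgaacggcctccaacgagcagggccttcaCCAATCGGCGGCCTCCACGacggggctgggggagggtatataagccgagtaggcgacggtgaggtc
XBP1 (chr22:28800570-28800819, minus strand): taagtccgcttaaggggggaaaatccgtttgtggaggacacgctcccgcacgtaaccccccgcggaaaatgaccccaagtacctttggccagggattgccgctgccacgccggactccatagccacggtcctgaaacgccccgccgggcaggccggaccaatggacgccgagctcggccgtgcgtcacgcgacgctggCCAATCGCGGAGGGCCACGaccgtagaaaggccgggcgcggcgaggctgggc
ERO1B (chr1:236281959-236282208, minus strand): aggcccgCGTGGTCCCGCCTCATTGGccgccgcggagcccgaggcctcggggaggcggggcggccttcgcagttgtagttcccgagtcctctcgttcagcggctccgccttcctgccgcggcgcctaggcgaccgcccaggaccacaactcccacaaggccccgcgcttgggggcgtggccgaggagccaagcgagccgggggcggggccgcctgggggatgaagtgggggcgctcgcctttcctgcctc
CLGN (chr4:140427649-140427898, minus strand): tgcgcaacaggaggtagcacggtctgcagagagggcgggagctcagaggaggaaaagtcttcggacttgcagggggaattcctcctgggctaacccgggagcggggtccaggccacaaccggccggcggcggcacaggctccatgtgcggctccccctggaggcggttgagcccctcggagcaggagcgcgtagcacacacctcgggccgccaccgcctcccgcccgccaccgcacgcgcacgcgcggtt
ERGIC2 (chr12:29381173-29381422, minus strand): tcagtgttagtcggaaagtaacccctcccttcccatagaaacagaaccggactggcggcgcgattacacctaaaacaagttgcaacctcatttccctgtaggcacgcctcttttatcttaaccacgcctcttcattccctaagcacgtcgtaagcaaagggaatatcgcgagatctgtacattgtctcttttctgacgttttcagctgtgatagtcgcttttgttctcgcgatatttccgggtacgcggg

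**Figure D3:**
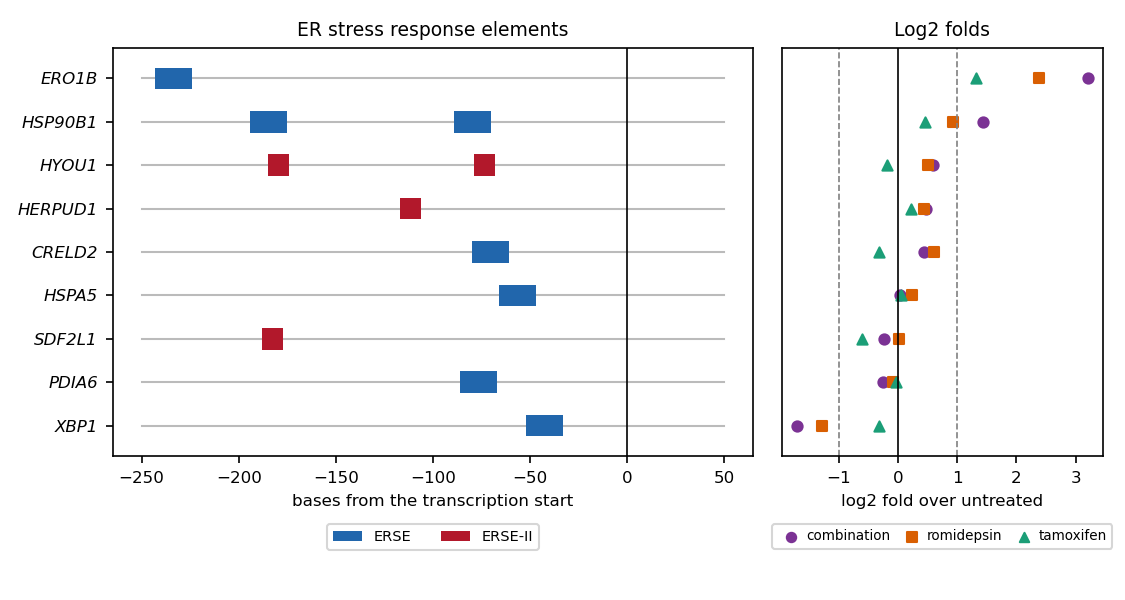
Left, position of ERSE and ERSE-II in the promoter windows of the 9 members that hold them, in bases from the transcription start; right, log2 folds of the same genes over untreated cells with dashed lines at 2-fold. In the combination the folds run from 3.21 for ERO1B at the top to -1.72 for XBP1 at the bottom.

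The counts by role that follow are for small groups. In the combination over untreated cells they stand against 19.8% of all genes that rose and 14.4% that fell. Of the 7 sensors and transcription factors, XBP1 fell and CREBRF rose, and the 3 sensors stayed within 2-fold of untreated cells in each treatment. XBP1, the transcription factor that IRE1 activates by splicing, had a signal of 427 in the combination, 571 with romidepsin and 1114 with tamoxifen, against 1402 in untreated cells. Both arrays with romidepsin were the low ones. XBP1 was 3.29-fold lower in the combination and 2.45-fold lower with romidepsin than in untreated cells, and 2.61-fold lower in the combination than with tamoxifen. The call was kept in all 3 comparisons under the 7 alternative settings. A single probe set above the floor stood for XBP1, its signal is for the gene's RNA as a whole, and splicing was not measured.

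ERN1 had a signal of 671 in the combination, 725 with romidepsin and 317 with tamoxifen, against 405 in untreated cells. It was higher on the 2 arrays with romidepsin, and 2.12-fold higher in the combination than with tamoxifen. Its 3 probe sets differed in that comparison, with log2 folds from 0.03 to 1.08, and their median was 0.18. The call was lost under 3 of 7 alternatives. EIF2AK3 had 1801 in the combination, 1456 with romidepsin and 1349 with tamoxifen, against 1010 in untreated cells, so that all treated arrays were above the untreated one but none by 2-fold. ATF6 had 712 in the combination and 707 with tamoxifen, and 510 with romidepsin, against 495 in untreated cells. The 2 arrays with tamoxifen were the higher ones, at a log2 fold of 0.53 and 0.52. The 4 probe sets of ATF6 differed, with log2 folds from -0.35 to 0.83 with tamoxifen and from 0.165 to 1.05 in the combination.

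CREBRF, whose product recruits CREB3 to be degraded, had 325 in the combination, 134 with romidepsin and 252 with tamoxifen, against 64.6 in untreated cells. By the probe set that stood for it, CREBRF was at least 4.89-fold higher in the combination, at least 3.79-fold with tamoxifen and at least 2.02-fold with romidepsin. The 2 probe sets above the floor on both arrays gave smaller log2 folds, 1.53 and 1.66 in the combination and 1.03 and 1.29 with tamoxifen. The romidepsin call was lost under 4 of 6 alternatives that gave a value. Of the 2 probe sets above the floor on both the romidepsin and the untreated array, 1 lay above 0 and 1 below. It was 2.42-fold higher in the combination than with romidepsin. CREB3, a membrane-bound factor cut in the Golgi like ATF6, had 3528 in the combination, 4318 with romidepsin and 1878 with tamoxifen, against 2822 in untreated cells, all within 2-fold. CREB3L2, its relative in secretory cells, had 1497, 1415 and 845 in the same order, against 799 in untreated cells.

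Across the list, the array order was uneven. Of the 37 members above the floor on all 4 arrays, 17 had their highest signal in the combination, 11 with romidepsin, 2 with tamoxifen and 7 in untreated cells. Among 11058 genes the shares were 28.4%, 21.3%, 20.6% and 29.7% in the same order. The lowest signal was in the combination for 4 members, with romidepsin for 2, with tamoxifen for 13 and in untreated cells for 18, against 33.7%, 16.0%, 21.3% and 29.0% of all genes in the same order.

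**Figure D4:**
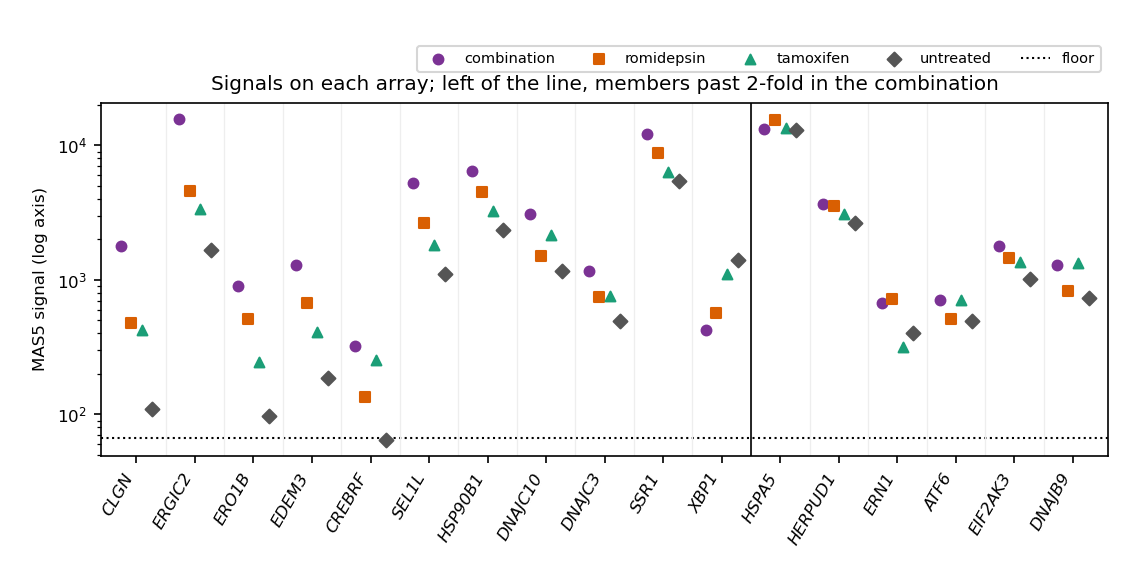
MAS5 signals (log axis) of 17 members on the 4 arrays, with the floor as a dotted line; 11 members past 2-fold in the combination over untreated cells stand left of the vertical line, and HSPA5, HERPUD1, the 3 sensors and DNAJB9 right of it. In the 10 members that rose the combination is the highest array and untreated the lowest, and in XBP1 the reverse; heights are not comparable between genes.

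Of 11 chaperones and co-chaperones, 4 rose in the combination and 0 fell. HSPA5, the ER member of the Hsp70 family that also holds the sensors inactive, had 13319 in the combination, 15328 with romidepsin and 13514 with tamoxifen, against 13006 in untreated cells. The largest of these differences was 1.18-fold, with romidepsin, and a second probe set gave 527, 627 and 544 against 605. HSP90B1, the ER member of the Hsp90 family, had 6418 in the combination, 4490 with romidepsin and 3241 with tamoxifen, against 2370 in untreated cells. It was 2.71-fold higher in the combination, and every treated array was above the untreated one. Its probe sets in use, both of a kind that can match several transcripts, gave log2 folds of 1.06 and 1.44.

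CLGN, calmegin, a calnexin-like chaperone needed in the mouse for fertile sperm, had 1783 in the combination, 479 with romidepsin and 425 with tamoxifen, against 109 in untreated cells. It was 16.4-fold higher in the combination, 4.40-fold with romidepsin and 3.90-fold with tamoxifen, and 3.72-fold higher in the combination than with romidepsin and 4.20-fold higher than with tamoxifen. In rank from the top it stood at 64 of 13802 genes in the combination and at 11 of 13051 with tamoxifen. CLGN has 1 probe set, so no second one can be set beside it.

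The J-domain co-chaperones, which bring substrates to HSPA5, were spread. DNAJC10, which also reduces disulfide bonds of proteins on their way to degradation, had 3108 in the combination, 1502 with romidepsin and 2149 with tamoxifen, against 1170 in untreated cells. It was 2.66-fold higher in the combination than in untreated cells and 2.07-fold higher than with romidepsin, where centring the arrays ended the second call (log2 fold 0.94), and its 4 probe sets above the floor gave log2 folds over untreated cells from 1.34 to 1.79. DNAJC3, known also as an inhibitor of PERK, had 1171 in the combination, 747 with romidepsin and 761 with tamoxifen, against 498 in untreated cells. It was 2.35-fold higher in the combination, and the call was lost with arrays centred on their medians (log2 fold 0.94) and with the median over probe sets (0.90).

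DNAJB9, a co-chaperone that keeps IRE1 inactive and a classic target of XBP1, had 1285 in the combination, 827 with romidepsin and 1347 with tamoxifen, against 739 in untreated cells. Both arrays with tamoxifen were the higher ones, at 1.74-fold and 1.82-fold. DNAJB11, HYOU1, SDF2L1, CRELD2 and MANF, which assist or accompany HSPA5 and are known targets of the stress response, all stayed within 2-fold in the 5 comparisons. In the combination over untreated cells their log2 folds ran from -0.23 for SDF2L1 to 0.59 for HYOU1. SDF2L1 had 1781 in the combination, 2113 with romidepsin and 1375 with tamoxifen, against 2093 in untreated cells, and MANF 3534, 3767 and 3259, against 3806. With tamoxifen alone 4 of these 5 lay between -0.37 and -0.19 and SDF2L1 at -0.61.

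Of 5 measured genes of disulfide bond formation, ERO1B rose and the others stayed within 2-fold. ERO1B, an oxidase that recharges protein disulfide isomerases and is prominent in the pancreas, had 906 in the combination, 510 with romidepsin and 245 with tamoxifen, against 97.9 in untreated cells. It was 9.25-fold higher in the combination, 5.21-fold with romidepsin and 2.50-fold with tamoxifen, and its 2 probe sets gave log2 folds of 2.94 and 3.21 in the combination. Its widely expressed relative ERO1A had 2107 in the combination, 2016 with romidepsin and 2252 with tamoxifen, against 1277 in untreated cells. The 3 probe sets of ERO1A went different ways in the combination, with log2 folds from -0.47 to 1.02. The isomerases themselves stayed within 2-fold. PDIA4 had 3071 in the combination, 3564 with romidepsin and 3814 with tamoxifen, against 4693 in untreated cells, 1.53-fold lower in the combination. P4HB, protein disulfide isomerase itself, and PDIA6 had log2 folds of 0.19 and -0.26 in the combination.

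Of 9 measured degradation genes, EDEM3 and SEL1L rose in the combination and 0 fell. EDEM3, which with its relatives trims mannose from glycoproteins marked for degradation, had 1298 in the combination, 673 with romidepsin and 411 with tamoxifen, against 187 in untreated cells. It was 6.95-fold higher in the combination, 3.60-fold with romidepsin and 2.20-fold with tamoxifen, a call kept under 3 of 6 alternatives and lost with arrays centred on their medians and under quantile normalization (log2 fold 0.99 in each), and with the floor at the 75th percentile (0.01). SEL1L, the partner of the ubiquitin ligase that SYVN1 encodes, had 5277 in the combination, 2643 with romidepsin and 1803 with tamoxifen, against 1107 in untreated cells. It was 4.77-fold higher in the combination and 2.39-fold higher with romidepsin, and 2.93-fold higher in the combination than with tamoxifen. Its 3 probe sets above the floor gave log2 folds from 1.49 to 2.25 in the combination. In both genes each drug alone was between the untreated array and the combination.

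The relatives of EDEM3 did not share its size. EDEM1 had 1639 in the combination, 1426 with romidepsin and 1330 with tamoxifen, against 900 in untreated cells, and EDEM2 had 705, 851 and 638, against 794. The derlins, membrane proteins of the exit channel, stayed within 2-fold by the probe sets that stood for them. DERL1 had 3891, 4059 and 5397 in the same order, against 5620 in untreated cells. DERL2 had 3266, 3013 and 3171, against 3388, but its second probe set gave a log2 fold of -1.17 with romidepsin. DERL3, the derlin typical of secretory cells and close to the floor here, had 135 in the combination, 89.1 with romidepsin and 99.9 with tamoxifen, against 163 in untreated cells. HERPUD1, a membrane adaptor of the degradation complex and a known target of ATF6 and PERK, had 3669, 3553 and 3082, against 2638 in untreated cells, 1.39-fold higher in the combination. OS9, the lectin that reads the trimmed mannose, had 5876, 4450 and 3152, against 2952; at 1.99-fold it lay just short of 2-fold in the combination, and its second probe set gave a log2 fold of 1.20.

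Of 4 translocation genes, SSR1 rose in the combination. SSR1, a subunit of the complex that assists the Sec61 channel, had 12114 in the combination, 8851 with romidepsin and 6310 with tamoxifen, against 5393 in untreated cells. It was 2.25-fold higher in the combination, with log2 folds of its 6 probe sets between 0.90 and 1.29, and the call was lost with arrays centred on their medians (0.87). SSR3, of the same complex, had 14591, 15797 and 9895, against 10363 in untreated cells, 1.41-fold higher in the combination. Its 4 probe sets gave log2 folds from 0.49 to 2.10 in the combination and from 0.61 to 1.33 with romidepsin. The probe set that stood for it gave the lowest of these in both. The channel subunits SEC61A1 and SEC61B had log2 folds of -0.14 and 0.15 in the combination, -0.35 and -0.47 with tamoxifen, and 0.03 and 0.32 with romidepsin.

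The last pair are membrane proteins outside the folding machinery. ERGIC2, which cycles between the ER and the Golgi, had 15814 in the combination, 4579 with romidepsin and 3387 with tamoxifen, against 1667 in untreated cells. It was 9.49-fold higher in the combination, 2.75-fold with romidepsin and 2.03-fold with tamoxifen, and 3.45-fold higher in the combination than with romidepsin and 4.67-fold higher than with tamoxifen. The tamoxifen call was lost with arrays centred on their medians (log2 fold 0.87) and with the median over probe sets (0.91). Its probe sets above the floor gave log2 folds between 2.91 and 3.25, and against romidepsin alone it ranked 24 of 13726 genes. WFS1, wolframin, mutated in Wolfram syndrome, was higher on both arrays with romidepsin. It had 2944 in the combination, 3518 with romidepsin and 1347 with tamoxifen, against 1538 in untreated cells. It was 2.29-fold higher with romidepsin and 2.19-fold higher in the combination than with tamoxifen, and 1.91-fold higher in the combination than in untreated cells. The call over tamoxifen was lost with arrays centred on their medians (log2 fold 0.98).

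What each drug added to the other was read from the combination over each drug alone. Over romidepsin, 4 of 38 members rose, CLGN, ERGIC2, CREBRF and DNAJC10, and 0 fell, where 4.07% of 13726 genes rose and 2.27% fell. The median was 0.07, against -0.03 for all genes, and with spike-in scaling 7 rose and the median was 0.38. Over tamoxifen, 7 rose, ERGIC2, CLGN, ERO1B, EDEM3, SEL1L, WFS1 and ERN1, and XBP1 fell, where 14.8% of 13893 genes rose and 11.8% fell; the median was 0.51, against 0.05 for all genes. These comparisons share the combination array with each other.

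Whether the combination matched the product of the single-drug folds was read per gene. Of 37 members above the floor on all 4 arrays, 1 departed from it by at least 2-fold, DERL3, which lay 2.46-fold above, where 0.886% of 11058 genes lay that far above and 2.23% that far below. With the floor at the 75th percentile, or without probe sets that can match several transcripts, 0 members departed by 2-fold. The median departure of the members was 0.06 on the log2 scale, against -0.04 for all genes. CLGN, 16.4-fold higher in the combination, departed by -0.07, EDEM3 by -0.19 and SEL1L by 0.29, so that their folds in the combination were near the product of both. ERGIC2 lay 1.70-fold above the product and ERO1A 1.69-fold below it.

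**Figure D5:**
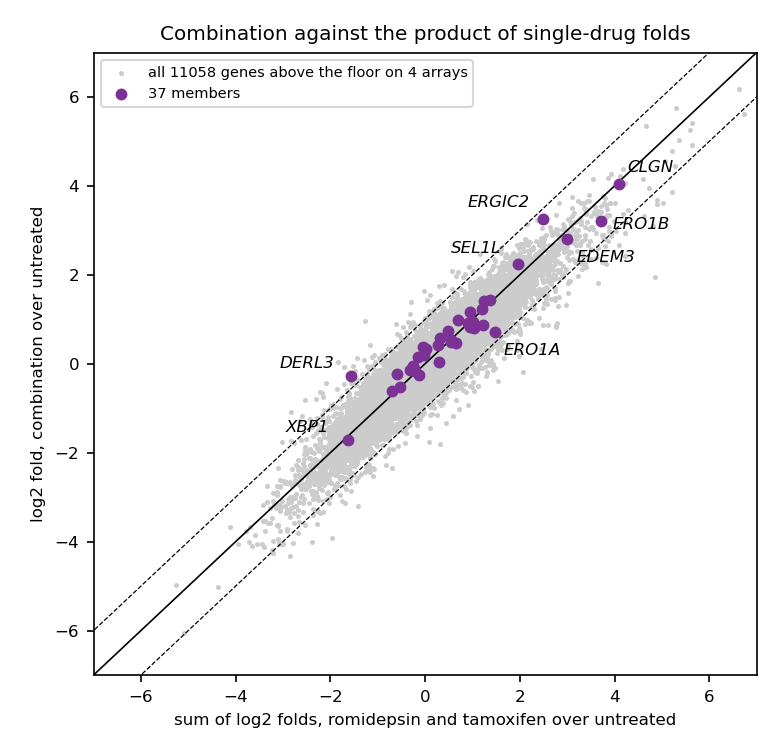
Log2 fold of the combination over untreated cells against the sum of the log2 folds of both drugs, for 37 members and for all 11058 genes above the floor on 4 arrays; the solid line is the product of the single-drug folds and the dashed lines lie 2-fold above and below it. DERL3 lies above the upper dashed line, and CLGN, EDEM3, SEL1L and XBP1 lie near the solid one.

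Other genes of the pathway were counted from 6 lists of 92 genes that share no gene with the 40. In the combination over untreated cells 86 were measured, 15 rose (17.4%) and 9 fell (10.5%), near the 19.8% and 14.4% of all genes, and the median log2 fold was -0.03 against 0.09. With romidepsin 5 of 86 rose and 5 fell, where 14.3% and 9.27% of all genes did, and with tamoxifen 1 rose and 0 fell, where 3.7% and 1.07% did. The counts of single lists that follow are for the combination over untreated cells and stand against the same 19.8% and 14.4%. Of 10 genes downstream of PERK, 4 rose and 1 fell. The stress transcription factor DDIT3 had 2930 in the combination, 796 with romidepsin and 1722 with tamoxifen, against 633 in untreated cells, while TRIB3, a pseudokinase that DDIT3 is known to induce, had 909, 1147 and 3687, against 2926. TRIB3 was 3.22-fold lower in the combination than in untreated cells and 4.06-fold lower than with tamoxifen, while DDIT3 was 4.63-fold higher in the combination than in untreated cells. Of 23 further folding enzymes 3 rose and 2 fell, with the collagen chaperone SERPINH1 at 44.1 in the combination, below the floor, 203 with romidepsin and 1109 with tamoxifen, against 1576 in untreated cells. Set against the floor, it was at least 23.7-fold lower in the combination.

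Of 18 further degradation factors measured, 2 rose and 2 fell, and FAM8A1, a cofactor of the ligase that SEL1L serves, had 4610 in the combination, 2555 with romidepsin and 846 with tamoxifen, against 472 in untreated cells. It was 9.77-fold higher in the combination. Of 20 translocation and signal peptide factors 4 rose, SEC62, SEC11C, SRP54 and SPCS3, and SPCS2 fell. Of 10 subunits of the oligosaccharyltransferase, which attaches N-glycans, MAGT1 rose and KRTCAP2 and STT3A fell. In the family of ATF6 and CREB3, with 5 measured, CREB3L1 rose and CREB3L4 fell in the combination. CREB3L1 had 291 in the combination and 283 with romidepsin and was below the floor with tamoxifen and in untreated cells, at least 4.38-fold higher in the combination.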

How the data were processed

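RNA of Panc1 cells was measured on 4 Affymetrix 3′ expression arrays, 1 per condition. The deposited values are linear signal intensities per probe set, which the authors computed in MAS5, as credited in the submitters' processing notes. The MAS5 release is not given in the sources used here. Each array's trimmed mean was 500.1, as tested on the values. Precision is limited by 1 array per condition, and no test was run.

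Control probe sets and the 1801 that name several genes were left out. Signals were floored at the median of all others (66.4) and taken to log2. A gene was represented by its probe set of highest mean log2 signal, and was measured in a comparison if above the floor on at least 1 array of it. Calls are 2-fold. Members called in any of 5 comparisons, and 7 fixed ones, are given in full. The members and lists were chosen with earlier results of these data known. The calculation was tested on simulated data. Alternatives were median centring, quantile normalization, spike-in scaling, floors at the 25th and 75th percentile, the median over probe sets, and only probe sets without the _x_at or _s_at suffix. Python 3.11.15, numpy 2.4.6 and pandas 2.3.3 were used.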

Additional observations from a re-analysis of the deposited data

Results flagged for a closer look

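DERL3, a derlin of ER-associated degradation, was lower with each drug given alone and higher where the same drug was added to the other. Its log2 fold was -0.87 for romidepsin over untreated cells and 0.43 for the combination over tamoxifen, which is romidepsin in the presence of tamoxifen. It was -0.70 for tamoxifen over untreated cells and 0.60 for the combination over romidepsin. These differences rest on 4 single arrays and were not tested.

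Some members that stayed within 2-fold in the combination over untreated cells had a further probe set past it. The log2 fold was 1.05 for a further probe set of the sensor ATF6, 1.02 for one of the oxidase ERO1A and 1.20 for one of the lectin OS9. It was 1.54 and 2.10 for 2 further probe sets of the translocon subunit SSR3.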

How the results depend on the processing

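With 7 alternative settings the members' median stayed above 0 with romidepsin, in the combination over untreated cells and in the combination over tamoxifen. With tamoxifen it was 0.01 as deposited and turned to -0.14 with arrays centred, -0.02 with the floor at the 75th percentile, -0.03 with the median over probe sets and -0.06 without probe sets that can match several transcripts. In the combination over romidepsin it was 0.07 and turned to -0.03 with arrays centred. Median folds moved by less than the spread between probe sets in 33 of 35 recomputed values. Counts of rises stayed within 1.5 times in 29 of 35 and counts of falls in 32 of 35. That spread is between probe sets of a gene and is not the uncertainty of a median over the members. By it, a change from 0.56 to 0.26 in the combination over untreated cells, with arrays centred, counted as no move. The floor at the 25th percentile lies under every member signal used, so it could change none of these values. With arrays scaled to the spike-in controls, rises were 18 in the combination over untreated cells, 9 with tamoxifen and 7 in the combination over romidepsin, with medians of 0.36 with tamoxifen and 0.38 in the combination over romidepsin. With arrays centred on their medians 3 members rose with tamoxifen and 2 fell with romidepsin, and 2 fell with romidepsin under quantile normalization. With the floor at the 75th percentile 3 rose with romidepsin, 1 rose with tamoxifen and 0 departed from the product. Without probe sets that can match several transcripts 0 departed, and 2 fell in the combination over tamoxifen. The cause of these moves was not tested.

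Of the called members, 9 of 11 kept the call under every alternative that gave a value in the combination over untreated cells, 4 of 8 with romidepsin and 2 of 5 with tamoxifen. The counts were 3 of 4 in the combination over romidepsin and 6 of 8 over tamoxifen. Among all genes, rises made up 57.9% of calls in the combination over untreated cells as deposited, 41.2% with arrays centred and 72.8% with spike-in scaling. Spike-in scaling moved the median log2 fold of all genes by 0.25 in that comparison and centring by -0.26. The members' median stood 0.51 and 0.44 above it under them, against 0.47 as deposited. Both settings multiply all signals of an array by 1 factor, so this gap could change little and is no check. Without probe sets that can match several transcripts the gap was 0.26 in that comparison. With romidepsin it was then 0.24, against 0.46 as deposited. No paired analysis was possible because each condition had 1 array.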
